A study of Rattus norvegicus with 4 samples.

Results

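The genes described here are the GDNF family ligands and receptors, 7 of the 25629 features in the tables: the ligands Gdnf, Artn and Nrtn, the ligand-binding co-receptors Gfra1, Gfra2 and Gfra3, and the signalling receptor Ret. They were found by their gene symbol, and each symbol belonged to 1 feature. The cells were dissociated from the ipsilateral L4-L6 dorsal root ganglia of male Sprague-Dawley rats, called wild type and naive in the series' design text. Sham rats formed one group and rats of the CPIP model the other; the labels do not expand CPIP, which is the usual short form for chronic post-ischaemia pain. There were 2 libraries per group, named Sham 1, Sham 2, CPIP 1 and CPIP 2, each made from the pooled ganglia of 3 rats, and neither the age of the rats nor the time after surgery is given in the sources used here. The comparison of the groups asks how the ganglion's cells differ between sham and CPIP rats.

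Ligands of the GDNF family signal through a receptor complex of parts made by different genes. Each ligand first binds a co-receptor that is anchored to the cell membrane by a lipid, and this pair then engages RET, a receptor tyrosine kinase that carries the signal into the cell. GDNF prefers GFRA1, neurturin (Nrtn) prefers GFRA2 and artemin (Artn) prefers GFRA3. In sensory ganglia RET is known for the non-peptidergic nociceptors and some touch-sensitive neurons, and GFRA3 for peptidergic nociceptors.

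Single cells were profiled on the BD Rhapsody microwell system, and each molecule was counted once by its unique molecular identifier (UMI). The libraries held 11829 to 12828 barcodes and 60885664 to 64550637 UMIs, and 10976 to 11907 cells per library were retained. Between 1 and 5 barcodes were shared by any pair of libraries, 19 in all. Classes were named from fixed markers, so a class name means likeness to that class, and they were formed without the 7 genes and the pathway genes named below. Levels are given in CPM, the UMIs of a gene scaled to 1000000 UMIs of that class in that library; they compare classes for 1 gene and are not compared between genes, whose lengths were not used. The neuron class summed to 18867 to 21105 CPM over 12 neuron markers, against 834 to 890 CPM in satellite glia, which envelop the cell bodies of the neurons. The cells of the 4 libraries that resembled neurons but held few UMIs were kept apart from the neurons.

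The ligands were rare everywhere. Gdnf had 44 UMIs, Artn 76 and Nrtn 18 over all 4 libraries, and their levels over all retained cells were 0.188 ± 0.0420, 0.322 ± 0.0755 and 0.0766 ± 0.0171 CPM (SD, n = 4 libraries). For Gdnf, which is best known for supporting neurons that carry GFRA1 and RET, the counts were 14, 10, 11 and 9 UMIs in Sham 1, Sham 2, CPIP 1 and CPIP 2. Artn, known for guiding sympathetic axons along blood vessels, had 12, 22, 22 and 20 UMIs in the same order. Nrtn had 5, 5, 3 and 5. For all 3 ligands the range of the CPIP libraries overlapped that of the Sham libraries.

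Satellite glia held 25 of the 44 Gdnf UMIs (56.8%), neurons 8, endothelial cells 5 and smooth muscle cells 4. Of the 76 Artn UMIs, the low-UMI or unnamed clusters held 23 (30.3%), neurons 19 (25%), satellite glia 15 and smooth muscle cells 10. Such shares also depend on how many UMIs a class gave in all. Smooth muscle cells gave so few UMIs in all that their 10 Artn UMIs came to 9.24 ± 1.52 CPM (SD, n = 4), with 3, 3, 2 and 2 UMIs in Sham 1, Sham 2, CPIP 1 and CPIP 2. In satellite glia the Artn level was 0.151 ± 0.0880 CPM, and each smooth muscle library lay above each satellite glia library, although 3 UMIs or fewer decide each of them. Neurons held 13 of the 18 Nrtn UMIs (72.2%), at 0.132 ± 0.0442 CPM (SD, n = 4). Smooth muscle cells held 2 Nrtn UMIs, both in Sham 1, a mean of 1.87 ± 3.75 CPM. For Gdnf the mean level was 3.94 ± 3.55 CPM in smooth muscle cells and 0.258 ± 0.134 CPM in satellite glia. The smooth muscle Gdnf UMIs were 0, 1, 1 and 2 in Sham 1, Sham 2, CPIP 1 and CPIP 2.

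Non-myelinating Schwann cells, the companions of thin axons, held no UMI of any of the 3 ligands. This class was named by its leading markers Prrg4 and Scn7a, although its marker score (mean standardized level) was 1.48 for myelinating and 1.19 for non-myelinating Schwann cells. Its summed non-myelinating markers were 8509 to 8835 CPM against 1840 to 2147 in the myelinating class, and its summed myelinating markers 11434 to 14704 against 116480 to 137860. A count of 0 there allows a level of up to 3.81 to 7.57 CPM in a library (3 UMIs, counting error only), which is above the ligand levels of satellite glia. Myelinating Schwann cells held 2 Artn UMIs, both from CPIP libraries, and none of Gdnf or Nrtn, which allows up to 2.55 to 5.65 CPM. Ligand expression in Schwann cells below these limits was not detectable at this depth.

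**Figure D1:**
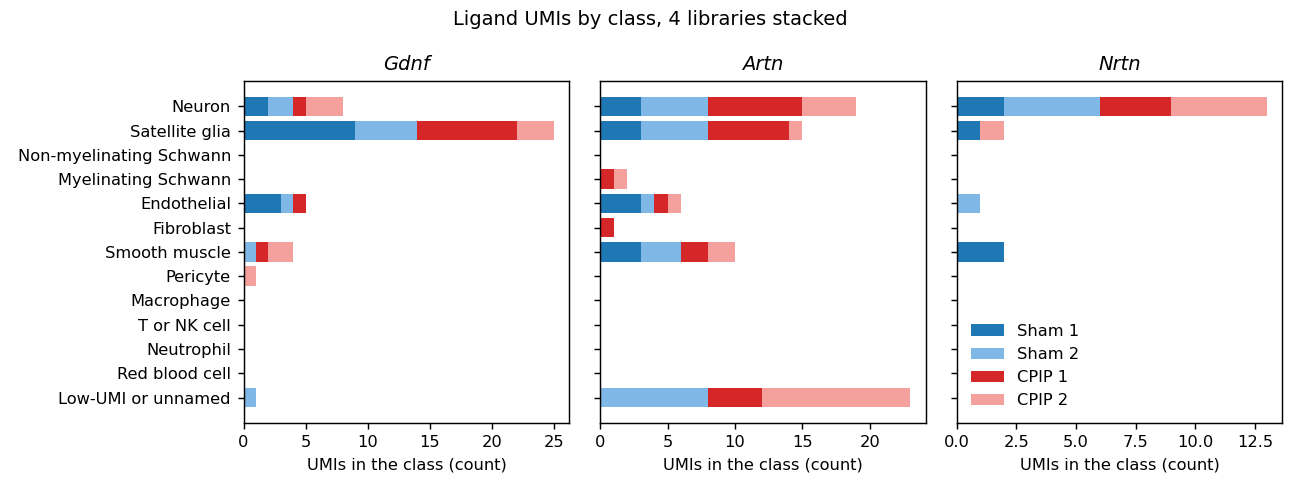
UMIs of Gdnf, Artn and Nrtn (x axis, count) in each cell class (y axis), with the 4 libraries stacked in colour. No class holds more than 25 UMIs of a ligand, the 25 being Gdnf in satellite glia, and both Schwann classes are empty except for 2 Artn UMIs.

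Gfra1, the co-receptor for GDNF, had higher mean levels in fibroblasts and Schwann cells than in the neuron class. Fibroblasts had 29.7, 26.8, 16.9 and 22.1 CPM in Sham 1, Sham 2, CPIP 1 and CPIP 2, a mean of 23.9 ± 5.63 (SD, n = 4); both CPIP libraries lay below both Sham libraries, which was not tested because Sham 2 held 89 fibroblasts, under the minimum of 100. Non-myelinating Schwann cells had 24.3, 20.2, 16.5 and 18.2 CPM, and the ranges of these classes overlapped. Pericytes came next with a mean of 16.1 ± 5.07 CPM from 11 UMIs. Myelinating Schwann cells followed with 9.85, 11.3, 11.9 and 21.6 CPM from 50 UMIs, and smooth muscle cells with a mean of 8.59 ± 2.56 CPM from 9 UMIs.

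Satellite glia had 6.70, 3.97, 5.23 and 5.42 CPM of Gfra1, and neurons 4.71, 4.20, 4.603 and 3.37 CPM. Satellite glia lay above neurons in 3 of 4 libraries and their ranges overlapped. Of the 1782 Gfra1 UMIs, satellite glia held 29.6%, neurons 23.8% and the low-UMI or unnamed clusters 32.0%. With the low-UMI clusters that resemble neurons joined to the neurons, neuronal Gfra1 was at 8.98, 8.35, 9.26 and 10.1 CPM, above satellite glia in every library and overlapping the myelinating Schwann cells. These clusters are described among the closing observations.

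Within neurons Gfra1 had its highest mean in the cluster led by Mrgprb4 and Adora2b, which was like non-peptidergic nociceptors, at 11.1, 11.3, 12.5 and 11.1 CPM. The cluster led by Iapp and Crh, also like non-peptidergic nociceptors, had 8.24, 8.79, 8.004 and 7.24 CPM. The ranges of these 2 clusters did not overlap. Between them stood the cluster led by Alk and Celsr1 at 10.1 ± 9.37 CPM (SD, n = 4), which rests on 3 UMIs and overlapped both. Both clusters led by Adcyap1, which were like peptidergic nociceptors, were at or below 1.16 CPM in every library. In the cluster led by Nmu and Tafa4, like the low-threshold mechanoreceptors that carry Th or Tafa4, 2 Gfra1 UMIs were found in 4 libraries.

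Gfra2, the co-receptor for neurturin, was highest in fibroblasts and neurons. Fibroblasts had 69.8, 43.5, 40.0 and 65.8 CPM (mean 54.8 ± 15.2, SD, n = 4). Neurons had 33.0, 29.0, 27.7 and 47.5 CPM, below fibroblasts in every library although the ranges overlapped. Pericytes, the cells on capillary walls, had 22.2, 14.1, 50.7 and 46.6 CPM from 21 UMIs in all, and their order against neurons was not fixed beyond the spread.

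The 2 Schwann classes differed in Gfra2. Non-myelinating Schwann cells had 26.3, 7.57, 12.7 and 36.4 CPM, and myelinating Schwann cells 1.23, 1.88, 1.70 and 3.93 CPM, so the classes did not overlap. Satellite glia were at 2.26, 1.82, 1.56 and 2.77 CPM. Neurons still held 79.9% of the 4253 Gfra2 UMIs.

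Among neurons Gfra2 differed widely between clusters. The Alk/Celsr1 cluster had 164, 135, 144 and 397 CPM from 80 UMIs, and the cluster of 169 cells led by Rac3 and Gnb2 had 166, 206, 111 and 217 CPM. The latter was like peptidergic nociceptors by its markers, yet the peptidergic-like Adcyap1/Npy1r and Crabp1/Adcyap1 clusters were at 2.43 ± 0.802 and 1.15 ± 0.541 CPM. The Nmu/Tafa4 cluster had 103, 94.1, 104 and 208 CPM, below the Rac3/Gnb2 cluster in every library, and the Iapp/Crh cluster 77.7, 72.2, 66.0 and 124 CPM. The other cluster like non-peptidergic nociceptors with Mrgprb4 at its head had only 2.58, 0.365, 0.277 and 2.22 CPM, so clusters of 1 likeness differed widely in this gene. The cluster led by Penk and Scgn, which was like cold-sensing Trpm8 neurons, had 24.2, 24.8, 16.5 and 39.8 CPM. The cluster led by Reg3a and Pkib had 42.6, 42.2, 28.2 and 85.6 CPM.

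Over the 6 neuron clusters with at least 30 cells in every library and at least 20 Gfra2 UMIs, CPIP 2 was highest in 6 and CPIP 1 lowest in 4. In these 6 clusters the Gfra2 levels of the 2 CPIP libraries lay farther apart than those of the 2 Sham libraries.

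Gfra3, the co-receptor for artemin, was highest in neurons at 89.9, 118, 81.5 and 94.5 CPM (mean 95.9 ± 15.5, SD, n = 4), and neurons held 92.0% of its 10432 UMIs. Cells like T or NK cells came next with 56.3 ± 30.2 CPM, which rests on 17 UMIs in 180 cells that clustering with another random seed did not set apart. Non-myelinating Schwann cells had 18.2, 30.3, 17.8 and 18.2 CPM, satellite glia 3.31, 4.11, 2.72 and 2.16 CPM, and myelinating Schwann cells 3.70, 3.77, 6.80 and 11.8 CPM.

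The peptidergic-like clusters carried most of the neuronal Gfra3. The cluster led by Adcyap1 and Npy1r had 326, 341, 315 and 309 CPM, and the one led by Crabp1 and Adcyap1 had 258, 251, 246 and 250.5 CPM. The first lay above the second in every library, without overlap. At the finer clustering a cluster led by Ramp3 and C1qtnf1 reached 414, 466, 448 and 383 CPM. At the other end, the Nmu/Tafa4 cluster had 6.67, 1.80, 1.09 and 3.64 CPM and the cluster led by Pvalb and Spp1, like large neurofilament neurons, had 3.90 to 8.75 CPM.

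A cluster of 35 cells led by Vip and Tgfbi, whose other leading genes include the injury genes Gal, Sprr1a and Npy, also held Gfra3. The Sham libraries held 0 and 1 of its cells and the CPIP libraries 20 and 14. In the CPIP libraries its Gfra3 level was 277 and 293 CPM from 34 and 35 UMIs, and its Ret level was 32.6 and 75.2 CPM from 4 and 9 UMIs. With 1 Sham cell, no comparison of the groups could be made in it.

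Ret, the kinase through which these ligands signal, was also found mostly in neurons. Neurons had 127, 117, 111 and 143 CPM (mean 124 ± 14.0, SD, n = 4) and held 87.4% of 14210 UMIs. Fibroblasts had 31.0, 6.69, 35.8 and 24.3 CPM, and no fibroblast library reached a neuron library. All other named classes had means from 4.40 to 12.4 CPM, and neighbours in their order overlapped.

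Every neuron cluster with a likeness to non-peptidergic nociceptors held Ret. The Iapp/Crh cluster had 200, 191, 185 and 294 CPM, the Mrgprb4/Adora2b cluster 165, 142, 138 and 216 CPM, and the Reg3a/Pkib cluster 160, 166, 123 and 226 CPM. The Nmu/Tafa4 cluster was in the same range with 184, 182, 167 and 217 CPM. The Rac3/Gnb2 cluster, at 166, 260, 208 and 161 CPM, and the cluster led by Sfrp5 and Col3a1, at 177, 164, 135 and 186 CPM, overlapped them. The Alk/Celsr1 cluster, with 74 cells, was far higher, at 714, 586, 701 and 1150 CPM, and above every other cluster in every library. Its 18, 15, 19 and 22 cells by library had a median of 2230 UMIs, against 5824 in the Iapp/Crh cluster. The part of depth in its Ret level was not tested.

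Ret was lower in most of the remaining neuron clusters. The cluster led by Sst and Ifitm1, like the neurons that carry Sst or Nppb, had 131, 113, 91.6 and 136 CPM. The Adcyap1/Npy1r cluster had 73.8, 62.1, 63.4 and 77.2 CPM, and the Crabp1/Adcyap1 cluster 50.1, 51.8, 47.6 and 59.7 CPM. The Trpm8-like Penk/Scgn cluster had 38.6, 64.7, 45.1 and 50.4 CPM, and the Pvalb/Spp1 cluster 12 UMIs in all, a mean of 5.52 ± 5.08 CPM. The cluster led by S100a16 and Chp2, which stayed unnamed, had 3.59 to 9.86 CPM. CPIP 2 was again the highest library in 9 of 12 clusters for Ret, and CPIP 1 the lowest in 9.

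**Figure D2:**
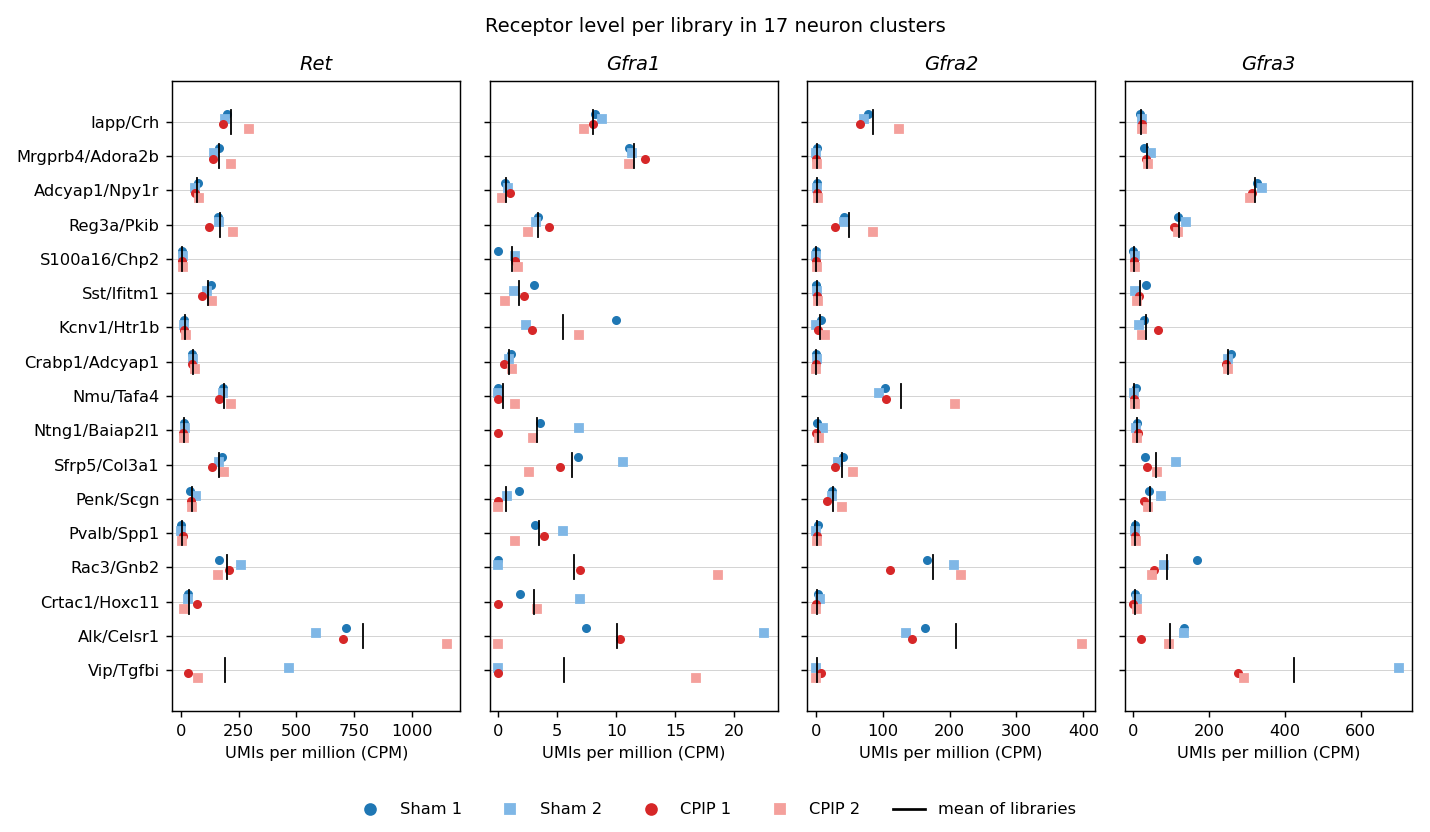
CPM of the 4 receptor genes (x axis, separate scales) in each of 17 neuron clusters, named by their 2 leading genes (y axis), with 1 point per library and a bar at the mean of the libraries. Ret spans 5.52 to 788 CPM in cluster means, and Gfra2 is highest in the Alk/Celsr1 and Rac3/Gnb2 clusters. Gfra3 has its highest means in the Vip cluster, whose mean includes a library with 1 Sham cell, and in the Adcyap1 clusters. In both CPIP libraries the Vip cluster lies below the Adcyap1/Npy1r cluster.

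The share of cells with a UMI was compared after each cell had been thinned to 2000 UMIs, since it depends on depth. Ret was then found in 20.8%, 20.8%, 20.05% and 24.6% of neurons in Sham 1, Sham 2, CPIP 1 and CPIP 2, Gfra2 in 6.75%, 4.70%, 5.95% and 9.46%, and Gfra3 in 11.5%, 15.1%, 11.7% and 12.2%. In endothelial cells, planned as the background from free RNA, the shares were 1.11% to 1.52% for Ret, 1.24% to 2.31% for Gfra2 and 0.558% to 0.843% for Gfra3. Gfra1 was found in 0.817% to 1.21% of neurons and in 0.169% to 0.419% of endothelial cells. Endothelial Gfra2 stood at 18.5% to 24.5% of its neuronal level, above the highest of 12 neuron markers (8.57% to 17.5%) in every library. Endothelial Gfra1 stood at 14.2% to 212%. The source of these UMIs was not tested, so the endothelial shares of Gfra1 and Gfra2 are not read as a background. Median depth before thinning was 5756 to 5865 UMIs in neurons and 2996 to 3292 in endothelial cells, and 255 to 308 neurons per library were too shallow to be thinned. Without thinning the Ret share of neurons was 47.8% to 51.9%, and that of endothelial cells 2.40% to 2.74%.

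Ret was found more often in neurons that also gave a Gfra2 UMI. Of these, 30.3%, 28.9%, 30.8% and 42.1% had Ret in the 4 libraries, against 20.2%, 20.4%, 19.4% and 22.8% of neurons without Gfra2. For Gfra3 the shares were 19.9%, 16.9%, 15% and 26.1% with it and 21.0%, 21.5%, 20.7% and 24.4% without it. Gfra2 and Gfra3 were seldom in 1 thinned neuron, with 10 of the 491 neurons that had either in Sham 1, 6 of 475 in Sham 2, 5 of 418 in CPIP 1 and 11 of 439 in CPIP 2. At this depth a neuron that expresses a receptor can give no UMI of it, and how many did so was not estimated. These shares are therefore descriptions of detected molecules.

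The receptors' levels were then tested between classes of the same libraries. UMIs were summed per library and class and tested with the quasi-likelihood test of edgeR with library as a term, and genes with a Benjamini-Hochberg adjusted p under 0.05 over all genes tested were called. Neurons against satellite glia called 89% of all 14450 genes, so being called is the rule there and is no result about the receptors. All 4 receptors passed the low-count filter and were called. In neurons Ret was higher by 4.59 ± 0.11 on the log2 scale (SE; edgeR adjusted p = 1.14e-11), Gfra2 by 3.79 ± 0.080 and Gfra3 by 4.72 ± 0.095. Gfra1 was lower, with a log2 difference of -0.57 ± 0.13 (edgeR adjusted p = 0.0015). This Gfra1 difference turned to 0.37 (edgeR adjusted p = 0.0069) with the neuron-like low-UMI clusters joined to the neurons, and was -0.33 (edgeR adjusted p = 0.038) with total UMIs in place of TMM as the scale. None of the ligands passed the filter. The classes were formed from the same cells, with these genes left out.

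Non-myelinating Schwann cells were higher than satellite glia in all 4 receptors, where 40.9% of 13064 genes were called. The log2 differences were 2.99 ± 0.34 for Gfra2, 2.47 ± 0.32 for Gfra3, 1.54 ± 0.29 for Gfra1 and 1.04 ± 0.36 for Ret, with an edgeR adjusted p of 0.011 for Ret. The Ret call rested on 27 UMIs in these Schwann cells and was lost without CPIP 1 (log2 difference 0.91, edgeR adjusted p = 0.13) and without CPIP 2 (0.97, adjusted p = 0.063). Myelinating Schwann cells were lower than non-myelinating ones in Gfra2 by a log2 difference of -2.98 ± 0.48 and in Gfra3 by -1.31 ± 0.39, where 37.7% of 7602 genes were called. That Gfra3 call was lost with DESeq2 (adjusted p = 0.069) and without Sham 2 (-1.04, edgeR adjusted p = 0.057). Gfra2 did not pass the low-count filter without Sham 1 or without CPIP 2, so its call could not be retested there. Gfra1 (-0.27 ± 0.32) and Ret (0.33 ± 0.38) were not called between the Schwann classes.

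**Figure D3:**
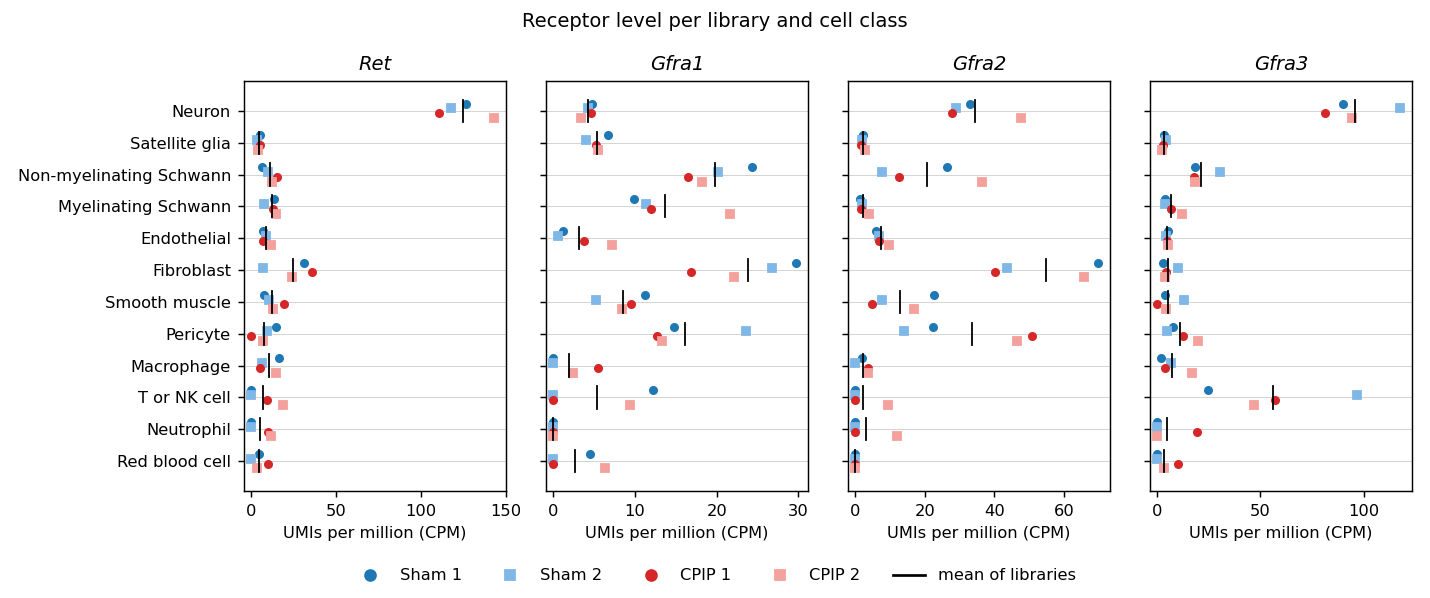
CPM of the 4 receptor genes (x axis, separate scales) in 12 cell classes (y axis), with 1 point per library and a bar at the mean of the libraries. Ret and Gfra3 peak in neurons, while Gfra1 and Gfra2 peak in fibroblasts.

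Neuronal RNA was present in the other classes as well, and its level is given beside the receptors. In satellite glia, 11 of the 12 neuron markers had UMIs, Pou4f1 being the one at 0, and the median marker stood at 4.03%, 3.57%, 3.94% and 3.43% of its neuronal level in Sham 1, Sham 2, CPIP 1 and CPIP 2. Ret stood there at 4.15%, 2.85%, 4.54% and 2.81%, and Gfra3 at 3.68%, 3.49%, 3.34% and 2.29%, both close to that median. Gfra2 was somewhat above it at 5.65% to 6.87%, where the highest neuron marker stood at 6.72% to 9.585%. Only in Sham 1 did Gfra2 lie above that highest marker. Gfra1 stood at 94.5% to 161%.

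In non-myelinating Schwann cells the median neuron marker was at 7.20% to 9.73% of the neuronal level. Ret was at 4.80% to 13.8%, around it. Gfra3 was at 19.3% to 25.7% and Gfra2 at 26.1% to 79.8%, both above the median marker in every library. The highest neuron marker was at 53.3%, 21.85%, 29.1% and 19.35% in Sham 1, Sham 2, CPIP 1 and CPIP 2. Gfra2 lay above this marker in every library, and Gfra3 only in Sham 2. In myelinating Schwann cells, with a median marker at 8.99% to 11.4%, Gfra2 was at 3.74% to 8.26% and Ret at 6.42% to 11.5%. The summed neuron markers of the classes ranged from 834 to 890 CPM in satellite glia, 1662 to 1935 in non-myelinating and 2037 to 2299 in myelinating Schwann cells. What part of the receptor levels in these classes came from neuronal RNA was not tested.

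**Figure D4:**
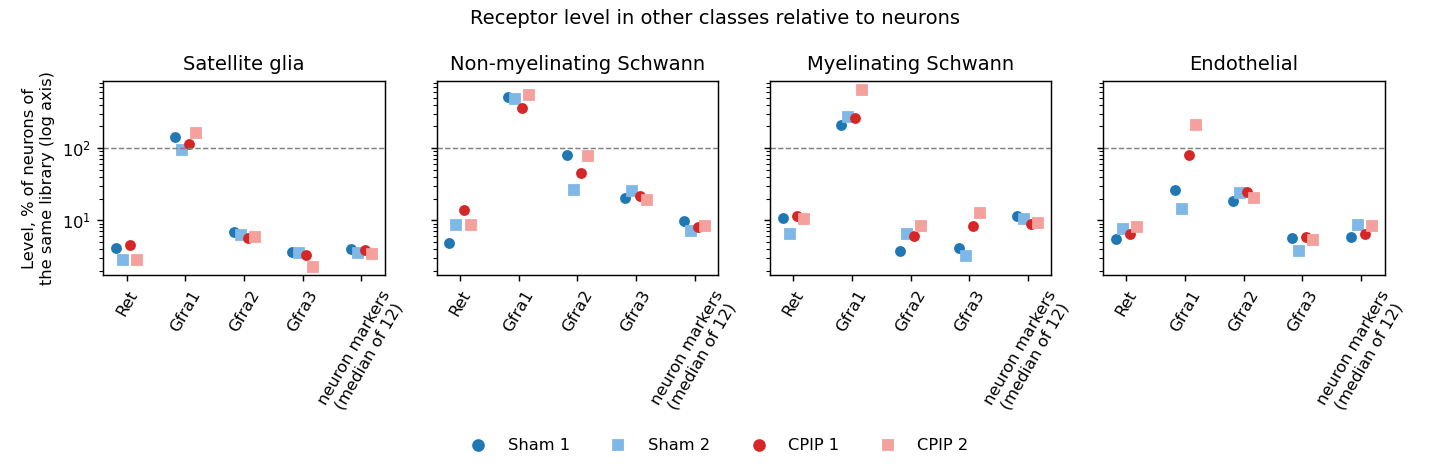
Level of each receptor gene in 4 classes as a percent of its level in the neurons of the same library (y axis, log scale), with 1 point per library, beside the median of 12 neuron markers. In satellite glia Ret and Gfra3 lie near the marker median, whereas Gfra1 lies at 94.5% to 161%.

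None of the receptors or ligands was called between CPIP and Sham. Over all retained cells 6 of the 7 genes passed the low-count filter (Nrtn did not), 0 were called by edgeR or DESeq2 and 1 had an unadjusted p under 0.05. The background was 0% of 15948 genes called by edgeR, 800 of which had an unadjusted p under 0.05, and 54 genes called by DESeq2. Ret was at 66.2, 55.2, 57.4 and 63.4 CPM in Sham 1, Sham 2, CPIP 1 and CPIP 2, with a log2 difference of -0.0040 ± 0.12 (SE of the edgeR fit). In whole-library sums, fewer cells of a type and less RNA per cell cannot be told apart.

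Gfra3 was the one with the low unadjusted p. Over all cells it was at 45.4 and 53.9 CPM in Sham and 38.3 and 39.8 CPM in CPIP, so the groups did not overlap, and the log2 difference was -0.34 ± 0.11 (SE; edgeR adjusted p = 0.86), or -0.21 without Sham 2. Within neurons it was at 89.9 and 118 CPM in Sham against 81.5 and 94.5 in CPIP, groups that overlapped, with a difference of -0.23 ± 0.15 (edgeR adjusted p = 0.97) that was -0.025 without Sham 2. The neurons retained numbered 2999, 2732, 2676 and 2337 in Sham 1, Sham 2, CPIP 1 and CPIP 2; their part in the difference over all cells was not tested.

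Satellite glia showed Gfra3 at 3.31 and 4.11 CPM in Sham and 2.72 and 2.16 CPM in CPIP. The groups did not overlap, and the log2 difference was -0.59 ± 0.23 (edgeR adjusted p = 0.97, unadjusted p = 0.044). It was -0.35 with doublets kept. The background in satellite glia was 0% of 13171 genes called, with 449 genes at an unadjusted p under 0.05 and 8 called by DESeq2; of the 4 receptors tested 0 were called by either tool.

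Within neurons, where edgeR called 0% of 13675 genes and DESeq2 10 genes, 0 of 4 receptors were called and 0 had an unadjusted p under 0.05. The log2 differences were 0.06 ± 0.13 for Ret, 0.29 ± 0.25 for Gfra2 and -0.15 ± 0.22 for Gfra1. Gfra2 in neurons turned on single libraries: without CPIP 1 the difference was 0.62 (edgeR adjusted p = 0.0052), when 792 of 14115 genes were called, and without CPIP 2 it was -0.14 (edgeR adjusted p = 0.98). With the lone CPIP library assumed to vary like the Sham libraries, that call compares 1 library with 2.

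Endothelial Gfra1 gave the largest log2 difference of a member in a class. It rested on 4 and 2 UMIs in Sham 1 and Sham 2 and 11 and 20 UMIs in CPIP 1 and CPIP 2, that is 1.22, 0.597, 3.73 and 7.15 CPM. The groups did not overlap, the log2 difference was 2.54 ± 0.62 and the unadjusted p was 0.0037, but the adjusted p was 0.996 by edgeR over 10363 genes, of which 0.00965% (1 gene) were called. The range without each library in turn was 2.01 to 3.11. Summed neuron markers in these cells were 1105, 1683, 1399 and 1741 CPM and summed fibroblast markers 428, 247, 307 and 313 CPM in Sham 1, Sham 2, CPIP 1 and CPIP 2; their part in the Gfra1 values was not tested.

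Schwann cells showed no called receptor either. In non-myelinating Schwann cells (0.0155% of 6452 genes called, 1 gene) Gfra1 was at 24.3 and 20.2 CPM in Sham against 16.5 and 18.2 CPM in CPIP, with a log2 difference of -0.37 ± 0.45 (edgeR adjusted p = 0.99). In myelinating Schwann cells (0% of 7241 called, 353 genes at an unadjusted p under 0.05, 0 by DESeq2) it was at 9.85 and 11.3 CPM against 11.9 and 21.6 CPM, with 0.63 ± 0.48 (edgeR adjusted p = 0.94). Ret in non-myelinating Schwann cells had 3, 4, 12 and 8 UMIs and did not pass the filter. In smooth muscle cells and macrophages no member passed it.

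The 13 neuron clusters with at least 30 cells in every library gave 26 tests of a receptor, of which 0 were called by edgeR or DESeq2 and 2 had an unadjusted p under 0.05. In 7 of these clusters 0% of all genes were called. The others were 0.0107% in the Mrgprb4/Adora2b, 0.0103% in the Adcyap1/Npy1r, 0.0117% in the Reg3a/Pkib, 0.0177% in the Kcnv1/Htr1b, 0.0221% in the Crabp1/Adcyap1 and 0.0119% in the Nmu/Tafa4 cluster, which is 1 or 2 genes each. The 2 tests with the low unadjusted p were Gfra2 in the Nmu/Tafa4 cluster (8420 genes tested) and Gfra3 in the Penk/Scgn cluster (0% of 8447 called, 258 genes at an unadjusted p under 0.05). Gfra2 in the Nmu/Tafa4 cluster was at 103 and 94.1 CPM in Sham and 104 and 208 CPM in CPIP, with a log2 difference of 0.65 ± 0.26 (edgeR adjusted p = 0.78). Gfra3 in the Penk/Scgn cluster was at 42.2 and 72.2 CPM in Sham and 27.5 and 39.2 CPM in CPIP, with -0.77 ± 0.30 (edgeR adjusted p = 1.00). In the Adcyap1/Npy1r cluster, where Gfra3 is highest among these 13 clusters, the difference was -0.08 ± 0.081, and in the Iapp/Crh cluster Ret differed by 0.30 ± 0.19.

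The thinned shares of neurons did not separate the groups either. CPIP minus Sham was 1.51 percentage points for Ret (exact permutation p = 1.00), 1.98 for Gfra2 (p = 0.67; 0.221 without CPIP 2 and 3.74 without CPIP 1) and -1.44 for Gfra3 (p = 1.00), all two-sided. With 2 libraries against 2 this test cannot go below 0.33.

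**Figure D5:**
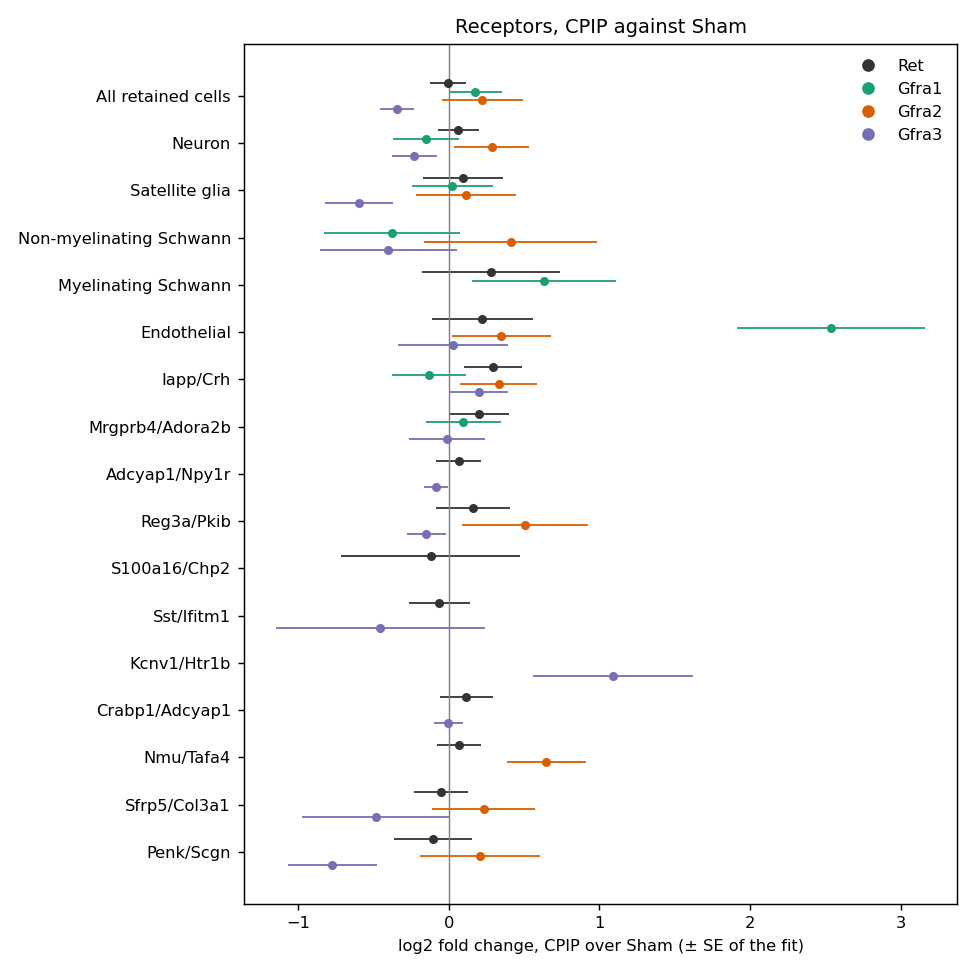
Fitted log2 fold change of CPIP over Sham (x axis, point with ± SE of the fit) for the 4 receptor genes in all retained cells, in 5 classes and in the neuron clusters where a gene passed the low-count filter (y axis). Endothelial Gfra1 at 2.54 lies farthest from zero, and none of the points was called.

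The rest of the pathway was read from 6 lists chosen for this purpose. None of the 56 list genes tested over all retained cells was called between CPIP and Sham, nor in any of the 306 tests in classes or the 512 in neuron clusters. Median log2 differences over all cells were 0.01 for the 22 RET adaptors and effectors tested, 0.0026 for the 11 genes of RET's brakes and turnover, 0.0043 for the 6 alternative receptors and binding partners of GDNF, -0.05 for the 8 genes that respond to RET or mark its neurons, 0.16 for the other 2 family members and 0.03 for the 7 repair Schwann cell genes. The median over all 15948 genes was 0.01. Among the most abundant list members over all cells were, by list, Pik3r1 and Ptpn11; Nedd4, Spry2 and Sh3kbp1; Ncam1, Itgb1 and Cdh2; P2rx3, Etv1 and Dusp6; Gdf15, Pspn and Gfral; and Jun, Gap43 and Sox2.

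The neuronal levels of 3 of these genes show the spread between libraries. Nedd4, a ubiquitin ligase, was at 808, 859, 855 and 761 CPM in the neurons of Sham 1, Sham 2, CPIP 1 and CPIP 2. P2rx3, the ATP-gated channel of non-peptidergic nociceptors, was at 724, 624, 673 and 603 CPM, with both CPIP libraries within or below the Sham range. Ncam1, a cell adhesion molecule that can bind GDNF, was at 186, 206, 200 and 206 CPM in neurons, against a mean of 1423 CPM in satellite glia.

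Between neurons and satellite glia most list genes were called, as were most of all genes tested. Of the 22 adaptors and effectors tested in neurons against satellite glia, 8 were higher in neurons (among them Akt1, Crk, Dok4, Dok5, Grb2, Plcg1 and Shc1) and 13 lower (Dok6, Frs2, Gab1, Gab2, Grb7, Irs1, Irs2, Pik3ca, Pik3r1, Ptpn11, Shc3, Sos1 and Src), that is 21 of 22 where 89% of all genes were called. With total UMIs as the scale, which moved the median of all genes from 0.06 to 0.31, Gab2 turned to 0.09 and Gab2, Pik3ca and Sos1 were not called by edgeR (adjusted p of 0.080, 0.068 and 0.58). The docking proteins Dok4 and Dok5, known partners of RET, were higher by 4.23 and 3.6 on the log2 scale. Of the 11 brakes, 2 were higher in neurons (Cblb and Ptprf) and 8 lower (Cbl, Lrig1, Nedd4, Ptpn1, Sh3kbp1, Spry1, Spry2 and Spry4), with Spry2, an inhibitor of receptor kinase signalling, at -4.08. The median log2 difference was -0.30 for the adaptors and -0.56 for the brakes, against 0.06 over all genes.

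Among the alternative receptors and binding partners, Sorl1 was higher in neurons (3.88) and Cdh2, Itgb1, Ncam1, Sdc3 and Sort1 were lower. Of the genes that respond to RET or mark its neurons, P2rx3, Trpv1 and Vgf were higher in neurons and Dusp6, Etv1, Etv4, Etv5 and Runx1 lower. Gdf15, which signals through GFRAL and RET, and Pspn were both lower in neurons, and Gfra4 and Gfral did not pass the filter. Of the repair genes, Bdnf, Gap43 and Ngfr were higher in neurons and Jun, Lif, Runx2 and Sox2 lower.

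In non-myelinating Schwann cells against satellite glia 9 of 22 adaptors and 6 of 11 brakes were called, where 40.9% of all genes were. Called higher were Gab1, Sos1, Ptprf, Sorl1, P2rx3, Gdf15, Gap43 and Ngfr. Among those called lower were Irs1, Irs2, Ptpn11, Shc1, Ptpn1, Spry2, Spry4, Cdh2, Ncam1, Sort1, Etv4, Etv5, Runx1 and Sox2. Gab2, Pik3r1, Lrig1, Sh3kbp1 and Dusp6 were called lower with TMM but not with total UMIs as the scale, which moved the median of all genes from -0.014 to 0.30 and the calls from 2247 higher and 3095 lower to 3797 higher and 1831 lower. On that scale Itgb1 was called higher, at 0.29 against -0.027 with TMM. Gap43, Ncam1 and Ngfr are also among the markers by which the Schwann class was named and support nothing here.

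Myelinating against non-myelinating Schwann cells called 5 of 16 adaptors and 8 of 11 brakes, where 37.7% of all genes were called. Cbl, Ptpn1, Ptprf and Sort1 were called higher, as were Irs2 and Sox2 with TMM but not with total UMIs as the scale, which moved the median from -0.012 to -0.21 and the calls from 1385 higher and 1479 lower to 920 higher and 2274 lower. Gab2, Grb10, Pik3r1, Src, Nedd4, Sh3kbp1, Spry1, Spry2, Spry4, Cdh2, Ncam1, Dusp6, Etv1, Runx1, Gdf15, Gap43, Jun, Lif, Ngfr and Runx2 were called lower. Of these, Gap43, Ncam1 and Ngfr are among the markers by which the non-myelinating class was named, so their calls support nothing here either. Spry2 again had a large difference at -2.50, and the sorting receptor Sort1 was higher by 2.83.

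The genes whose levels followed each receptor most closely were found over 28 points, the 11 other classes and the 17 neuron clusters, among 7984 genes; the points share libraries and depth, so the correlations are descriptions. For Ret these were Fam89a (Pearson r = 0.89), Vgf, a neuropeptide precursor, Cacna2d2, a calcium channel subunit, Tmeff1 and Synpr, a synaptic vesicle protein (r = 0.86). For Gfra2 they were Kcnd3, a potassium channel (r = 0.78), Lmx1a, Nectin1, Adamts8 and Grik1. For Gfra3 they were P4ha3 (r = 0.74), Cacna2d1, Ptprt, Dusp26 and Tprg1l, and for Gfra1 Sptbn1 (r = 0.71), Tmem45a, Zfta, St6gal1 and Col6a3, a collagen chain of connective tissue.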

How the data were processed

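Dissociated dorsal root ganglion cells of 2 Sham and 2 CPIP libraries were measured, each a pool of 3 rats. The authors deposited raw UMI counts per gene and barcode, and no matrix held a barcode with under 500 UMIs. No aligner, counter or genome build was named in the sources used here, so no coordinate or sequence is printed.

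Cells with at least 200 genes and at most 25% mitochondrial UMIs were kept. Scrublet's calls were removed (1149 cells, 2.17% to 2.92% of a library). In scanpy 1.11.5, cells were clustered on 2000 variable genes without the members or list genes, 30 components and 15 neighbours, with Leiden resolution 1.0, and 0.5 for neurons. Clusters were named from 206 fixed markers (195 in the files). A cluster led by no marker of its name with a median UMI count far below that of its libraries, like one without a clear name, was not named. The clustering steps, doublet rule and naming rules were revised after earlier clusterings of these data had been seen, for reproducibility and naming faults. The members and lists were chosen with earlier results of these data known.

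UMIs were summed per library and class (at least 100 cells in every library) or neuron cluster (at least 30). They were tested with edgeR 4.0.16 (R 4.3.3; TMM, filterByExpr, quasi-likelihood, Benjamini-Hochberg over all genes), called at an adjusted p under 0.05. Shares were compared by exact permutation. The floor for a count of 0 was 3 UMIs; floors and counts carry counting error only. P-values measure the spread between pools. On simulated data with a common dispersion of 0.0205, the neuron fit found 77% of 2-fold and 99% of 4-fold changes. It tested 13668 genes there and made 8 false calls. Whether these percentages hold for sparse genes such as the ligands, or for genes that vary more between libraries, was not tested. Alternatives were DESeq2 1.42.0, no count filter, each library left out, a replicate block, a stricter cell filter (500 genes, 15%), doublets kept, other thinning depths and finer neuron clusters. Added after seeing the data were a crossed block, another random seed, low-UMI neuron-like clusters joined with neurons and, between classes, total UMIs as the scale.

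All 7 members were named, as were list genes that were called and otherwise the 3 most abundant of each list; 1 list gene is not reported here. For likeness, the 5 genes closest to each receptor were named among those reaching 50 CPM.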

Additional observations from a re-analysis of the deposited data

Results flagged for a closer look

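The Gfra1 differences between CPIP and Sham had opposite signs in different cells, none of them past the test. The 4 groups of cells below were picked because their CPIP and Sham ranges did not overlap. With 2 libraries against 2, a random order gives this with a probability of 0.33. Gfra1 was also tested in the neuron class, satellite glia and the Mrgprb4/Adora2b cluster, where the ranges overlapped. In myelinating Schwann cells and in endothelial cells both CPIP libraries lay above both Sham libraries, with log2 differences of 0.63 ± 0.48 and 2.54 ± 0.62 (SE of the edgeR fit). In non-myelinating Schwann cells and in the Iapp/Crh neuron cluster both CPIP libraries lay below both Sham libraries, with -0.37 ± 0.45 and -0.13 ± 0.24. The log2 differences of myelinating and non-myelinating Schwann cells were 1.01 apart, those of myelinating Schwann cells and the Iapp/Crh cluster 0.77, those of endothelial and non-myelinating Schwann cells 2.91, and those of endothelial cells and the Iapp/Crh cluster 2.67. None of these differences between cell types was tested, and none of the 4 changes was called.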

How the results depend on the processing

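Between CPIP and Sham no member was called by edgeR, DESeq2, without the count filter, with either block, with stricter cells, doublets kept, the low-UMI clusters joined or another seed; calls arose only without CPIP 1 (Gfra2 in neurons, and 5 calls in 3 neuron clusters). With 2 pools per group and sparse ligands, small changes were not detectable, and clusters shift with the random seed (10626 of 10744 neurons and 1485 of 1503 non-myelinating Schwann cells kept their name, and 0 of 180 cells like T or NK cells).

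Genes called over all cells (0) became 54 with DESeq2. In neurons (0) they became 10 with DESeq2 and 1 each without the filter, with low-UMI clusters joined and with stricter cells. In satellite glia (0) they became 8 and 1 with DESeq2 and without the filter. In non-myelinating Schwann cells (1) they became 0 with DESeq2, 35 without the filter and 0 with doublets kept. In myelinating Schwann cells (0), smooth muscle cells (0) and macrophages (0) they became 33, 6 and 69 without the filter, and in macrophages 2 with DESeq2 and 1 with doublets kept. In endothelial cells (1) they became 2 with DESeq2 and 3 with stricter cells. Summed over the neuron clusters, 7 became 27 with DESeq2 and 1265 without the filter. Between the Schwann classes 2864 genes became 1670, and 2 called members became 1, with DESeq2.

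Same-numbered libraries did not deviate together (correlations -0.22 to -0.034 over the classes and all cells). With the replicate number as a block, called genes became 1 in neurons, 13 in non-myelinating and 1 in myelinating Schwann cells, 0 in endothelial cells, 3 in smooth muscle cells, 1 in macrophages and 30 over the neuron clusters. With the numbers crossed as a block these counts were 1, 47, 48, 21, 13, 0 and 41.

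Leaving out each library in turn gave 0 to 579 called genes over all cells, 0 to 792 in neurons, 0 to 495 in satellite glia, 10 to 69 in non-myelinating and 0 to 107 in myelinating Schwann cells, 2 to 157 in endothelial cells, 6 to 41 in smooth muscle cells, 0 to 69 in macrophages and 54 to 3244 over the neuron clusters. Called members were then 0 to 1 in neurons, 0 to 5 over the neuron clusters and 1 to 2 between the Schwann classes.

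Some log2 differences of members between CPIP and Sham, none called with all libraries, changed sign, and the cause was not tested. Neuronal Gfra1 was 0.14 with low-UMI clusters joined, against -0.15. The called Gfra1 difference of neurons from satellite glia was 0.37 with those clusters joined, against -0.57. Endothelial Ret and Gfra3 were -0.037 and -0.081 with doublets kept, against 0.22 and 0.03. With single libraries left out the log2 ranges over all cells were -0.0022 to 0.37 for Gfra1, -0.53 to 0.028 for Gdnf, -0.13 to 0.12 for Ret, -0.038 to 0.75 for Artn and -0.18 to 0.53 for Gfra2. In neurons, where the sign turned without CPIP 2, they were -0.40 to 0.065 for Gfra1, -0.12 to 0.23 for Ret and -0.14 to 0.62 for Gfra2. In satellite glia they were -0.31 to 0.43 for Gfra1, -0.19 to 0.44 for Ret and -0.36 to 0.46 for Gfra2. In Schwann cells they were -0.47 to 1.61 for non-myelinating Gfra2 and -0.0092 to 0.84 for myelinating Ret, and in endothelial cells -0.15 to 0.52 for Ret and -0.085 to 0.14 for Gfra3. The share differences of neurons (CPIP minus Sham, percentage points) ranged from -0.766 to 3.78 for Ret, -0.231 to 0.159 for Gfra1, 0.221 to 3.74 for Gfra2 and -3.24 to 0.367 for Gfra3.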

Other observations

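Cells that resembled neurons but held few UMIs formed clusters of their own, and their receptor values are given here without a comparison. The cluster of 3570 cells led by Grik1, Gpc5 and Dgki, with a median of 697 UMIs, had Gfra1 at 163, 116.5, 109 and 172 CPM in Sham 1, Sham 2, CPIP 1 and CPIP 2 from 416 UMIs. These levels are above those of every named class. Its Ret level was 244 ± 51.4 CPM (SD, n = 4), and Gfra2 and Gfra3 stood at 45.9 ± 13.4 and 34.1 ± 8.10 CPM. It also held 16 Artn UMIs, 0, 6, 3 and 7 by library.

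In the cluster of 2007 cells led by Kcnq5 and Ptprd, with a median of 773 UMIs, Gfra3 was at 133, 94.2, 79.6 and 69.7 CPM and Gfra1 at 44.1 ± 18.1 CPM from 92 UMIs. A cluster of 407 cells led by Col6a5 and Cdh9 had Ret at 221, 203, 309 and 314 CPM and Gfra2 at 104 ± 6.42 CPM. In a cluster of 380 cells led by Skor2 and Fat3, Gfra1 was at 87.8 ± 34.1 CPM from 33 UMIs. Among the other low-UMI cells, a cluster of 412 cells led by Pde7b and Ctnna3, closest to non-myelinating Schwann cells by its markers, had Gfra1 at 59.7 ± 26.3 CPM from 26 UMIs. Low-UMI or unnamed clusters together held 23 of the 76 Artn UMIs (30.3%) and 32.0% of the Gfra1 UMIs.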
